A study of Mus musculus with 4 samples.

Results

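The nuclear genes for respiratory chain complexes I to IV were compared between 2 kinds of mouse cells, G-MDSC (granulocytic myeloid-derived suppressor cells) and neutrophils. Members were genes whose symbol begins with Ndufa, Ndufb, Ndufc, Ndufs or Ndufv (complex I, without the Ndufaf assembly factors), Sdha to Sdhd (complex II), Uqcr (complex III), or Cox4 to Cox8 (complex IV). Of 18193 genes with a probe set of 1 symbol on the Affymetrix mouse array used, 65 were members, 36 in complex I, 4 in complex II, 8 in complex III and 17 in complex IV. Each was represented by its probe set with the highest mean log2(signal + 16). Cox7b was not analysed here. Of the 65 members, 62 passed the filter on low signals and were tested.

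The respiratory chain lies in the inner mitochondrial membrane. Complex I takes electrons from NADH and complex II from succinate, both pass them through ubiquinone to complex III, and cytochrome c carries them on to complex IV, which reduces oxygen. Mature neutrophils are known as cells with few mitochondria that live mainly from glycolysis, and their precursors as cells with more.

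The 2 G-MDSC samples were sorted with Ly6G microbeads from spleens of female C57BL/6 mice taken 3.5 weeks after subcutaneous EL4 lymphoma cells. The 2 neutrophil samples came from the peritoneum of female C57BL/6 mice given 2 injections of 1.5 ml of 12% casein, a milk protein, 16 h apart, with lavage 3 h after the last, and were depleted of F4/80-positive cells before the Ly6G selection. Red cells had been lysed in all samples, and 100 ng of RNA was labelled for 1 array each. Cell kind, tissue, treatment of the mice and sorting cannot be told apart. Whether the samples within a group are from different mice is not in the labels. The p-values therefore reflect the spread among these samples alone, and that spread may be technical. Limma moderates the spread of each gene toward that of genes of like signal. The values after ± are such moderated standard errors (SE), not the replicate spread of the gene alone. In bulk RNA, fewer cells of a type and less RNA per cell cannot be told apart.

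Both groups carried granulocyte transcripts. The alarmin S100a8 had signals of 53178 and 61944 in the G-MDSC arrays, against 58668 and 85891 in the neutrophil arrays, and the G-CSF receptor gene Csf3r 19174 and 27611 in the G-MDSC arrays, against 14881 and 15292 in the neutrophil arrays. Of 14 granulocyte markers tested, 8 were higher and 0 lower in G-MDSC by limma. Over all genes tested, 8.3% were higher and 8.05% lower. Macrophage markers ran the other way, with 10 of 19 lower and 0 higher, and their summed signal was 20274 to 20521 in G-MDSC, against 43753 to 67043 in neutrophils. Adgre1, the gene for F4/80, was among the 10, with 817 and 643 in the G-MDSC arrays, against 4847 and 7136 in the neutrophil arrays (-2.99 ± 0.32), although the neutrophils had been depleted of F4/80-positive cells. None of the 19 was below the 40th percentile of the signals in both arrays of a group. Among the markers of mast cells and basophils, 5 of 10 were lower and 1 was higher, with a summed signal of 20035 to 22583 in G-MDSC, against 30863 to 41147 in neutrophils, and 3 of them (Cma1, Mcpt4 and Tpsb2) were below the 40th percentile in both G-MDSC arrays and 1 (Mcpt8) in both neutrophil arrays. Of 9 B and plasma cell markers 3 were higher and 1 was lower, with a summed signal of 36570 to 48040 in G-MDSC, against 19036 to 21097 in neutrophils. Of 15 cell cycle genes 7 were higher and 0 lower, with a summed signal of 15856 to 32228 in G-MDSC, against 11828 to 12063 in neutrophils. Of 7 T and NK cell markers 1 was higher and 0 lower. Of 6 erythroid markers 0 were higher and 0 lower, and 4 were below the 40th percentile in both neutrophil arrays. The part of other cells and of cycling cells in the results was not tested. In neutrophils replicate 2 the 40th percentile of the signals was 132.6, while the 3 remaining arrays had 45.7 to 52.5. This array was the highest of the 4 arrays for 34 of the 62 members (54.8%) and for 46.8% of all genes tested.

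The promoters of the 4 members that passed the threshold are shown because the results turn on these genes. They are RefSeq sequences of GRCm38.p6, from 250 bases before to 50 bases after the start of the gene (for Ndufa5 the first of 2 listed starts). Capitals mark matches, on either strand, to motifs of factors known for activating respiratory genes, GCGCA, any base and GCGC for NRF1, CCGGAAG for ETS factors such as GABPA, and AANATGGCG for YY1.
Ndufa5, chr6:24527477-24527776, strand minus: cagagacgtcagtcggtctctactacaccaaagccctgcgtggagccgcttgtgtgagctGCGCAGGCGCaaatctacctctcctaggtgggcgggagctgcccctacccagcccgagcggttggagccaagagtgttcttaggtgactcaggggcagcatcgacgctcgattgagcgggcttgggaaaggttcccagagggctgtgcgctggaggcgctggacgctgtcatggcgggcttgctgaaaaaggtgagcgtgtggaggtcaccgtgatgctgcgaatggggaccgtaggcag
Ndufc1, chr3:51408906-51409205, strand minus: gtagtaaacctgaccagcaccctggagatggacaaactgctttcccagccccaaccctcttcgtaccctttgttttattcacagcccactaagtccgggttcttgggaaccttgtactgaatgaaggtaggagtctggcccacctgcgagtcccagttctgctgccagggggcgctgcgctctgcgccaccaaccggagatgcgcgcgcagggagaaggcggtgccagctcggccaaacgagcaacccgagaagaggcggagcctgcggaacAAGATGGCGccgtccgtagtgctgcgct
Sdhd, chr9:50603800-50604099, strand minus: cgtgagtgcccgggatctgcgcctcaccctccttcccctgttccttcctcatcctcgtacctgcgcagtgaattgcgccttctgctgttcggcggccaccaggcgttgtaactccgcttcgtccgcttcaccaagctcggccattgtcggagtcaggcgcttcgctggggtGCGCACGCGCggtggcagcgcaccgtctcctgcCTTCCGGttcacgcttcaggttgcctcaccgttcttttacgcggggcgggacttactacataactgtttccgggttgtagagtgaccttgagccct
Cox7a2l, chr17:83514284-83514583, strand minus: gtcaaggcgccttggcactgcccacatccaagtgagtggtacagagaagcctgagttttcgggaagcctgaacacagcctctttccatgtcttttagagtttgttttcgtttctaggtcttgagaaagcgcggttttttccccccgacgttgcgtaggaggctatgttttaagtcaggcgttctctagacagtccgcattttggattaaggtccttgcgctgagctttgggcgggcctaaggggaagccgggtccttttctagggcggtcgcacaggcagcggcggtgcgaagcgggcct
The Ndufa5 window held an NRF1 match that begins 190 bases before the start. The Ndufc1 window held a YY1 match from base 22 after the start. The Sdhd window held an NRF1 match 79 bases and an ETS match 46 bases before the start, while the Cox7a2l window held none of the motifs. Of the 52 members with a promoter in the table, 9 (17.3%) held the NRF1 motif, against 5.19% of all 27025 genes. The ETS motif was in 11 members (21.2%), against 9.93% of all genes, and the YY1 motif in 6 (11.5%), against 2.76%. The motifs do not overlap in these 4 windows. The 27025 genes were not limited to those tested on the arrays, nor matched to the members for G and C content. The matches describe the letters alone.

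By limma, 2 of 62 members were higher in G-MDSC (Sdhd and Cox7a2l) and 2 were lower (Ndufa5 and Ndufc1), at a Benjamini-Hochberg adjusted p below 0.05 over all 13142 genes tested. That is 6.45% of members, while 16.4% of all genes tested were called, 8.3% higher and 8.05% lower. At an unadjusted p below 0.05 the counts were 10 of 62 members (16.1%) and 29.6% of all genes. The median member had a log2 difference (G-MDSC minus neutrophils) of -0.15, and the median gene of -0.18. The sign of both medians turned with median scaling, to 0.093 and 0.056, and without neutrophils replicate 2, to 0.044 and 0.037.

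The middle of the members' differences was narrower than that of all genes. The quartiles were -0.45 and 0.27 over members, and -0.80 and 0.50 over all genes. Members were also brighter, with median signals of 2957 to 3165 in G-MDSC and 2719 to 3130 in neutrophils, where all genes tested had 328 to 348 in G-MDSC and 349 to 422 in neutrophils. The part of signal level in the narrower spread was not tested. A difference below 2-fold was measured for 55 of 62 members (88.7%) and for 69.4% of all genes. The signals of members were also closer between replicates, with a median absolute log2 difference of 0.18 between the G-MDSC arrays and 0.40 between the neutrophil arrays, against 0.31 and 0.58 over all genes. The arrays of the groups did not overlap for 35 members, 16 higher and 19 lower in G-MDSC. That is 56.5% of members, near the 59.5% of all genes, of which 27.3% were higher and 32.2% lower.

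**Figure D1:**
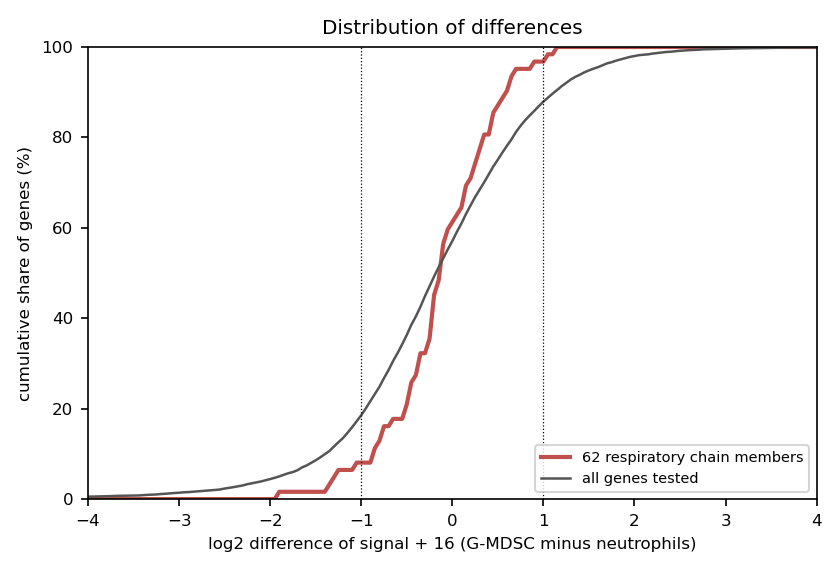
Cumulative share of genes (vertical axis, %) against the log2 difference of signal + 16, G-MDSC minus neutrophils (horizontal axis), for the 62 members tested (red) and all 13142 genes tested (grey). Dotted lines mark 2-fold, and the red curve is steeper, with 55 members between the lines.

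The 58 members that were not called ran from -1.93 for Cox7a1 to 0.90 for Ndufa8. Their 95% intervals had a median half-width of 0.68 on the log2 scale, or 1.61-fold. Of all 62 members, 28 had an interval lying within 2-fold in either direction. For the other members the 2 arrays per group leave a 2-fold difference possible. A missed threshold is not evidence of equal levels.

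**Figure D2:**
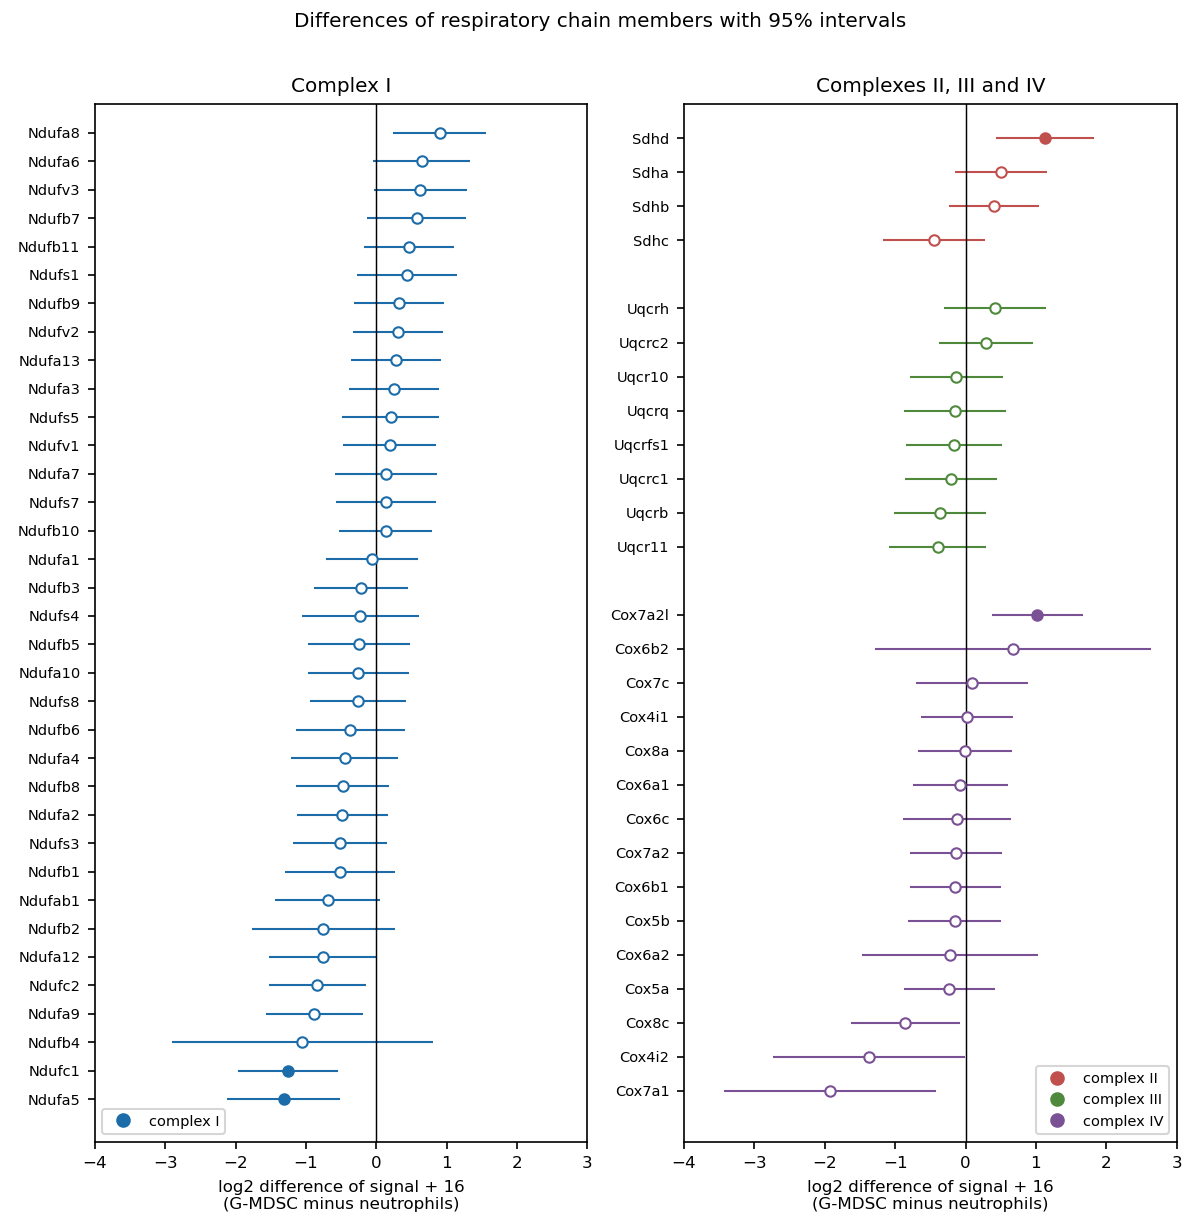
Log2 difference of signal + 16, G-MDSC minus neutrophils (horizontal axis), of each member tested, by complex, with 95% intervals from limma's moderated fit of 2 arrays per group. Filled points are the 4 called members, Ndufa5 and Ndufc1 to the left of 0 and Sdhd and Cox7a2l to the right.

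Complex I, the NADH dehydrogenase, had 2 called members of 35 tested, both lower in G-MDSC. Ndufa5, an accessory subunit of the matrix arm, had signals of 442 and 258 in the G-MDSC arrays, against 858 and 876 in the neutrophil arrays. The 2 neutrophil arrays were close together and both above the G-MDSC arrays. Ndufa5 fell by 1.32 ± 0.36 on the log2 scale (moderated SE, n = 2 per group, limma adjusted p = 0.0294). Ndufc1, an accessory subunit of the membrane arm, had signals of 1733 and 1402 in the G-MDSC arrays, against 3081 and 4543 in the neutrophil arrays. It fell by 1.25 ± 0.32 (limma adjusted p = 0.0218), with both G-MDSC arrays below both neutrophil arrays. The neighbouring subunit Ndufc2 had 3477 and 3022 in the G-MDSC arrays, against 4810 and 7023 in the neutrophil arrays, without passing the threshold (-0.84 ± 0.31, adjusted p = 0.0962).

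The core subunits of complex I that were tested, most of which carry the flavin or iron-sulfur clusters, were not called. Ndufv1, which binds NADH and the flavin, had signals of 1732 and 1649 in the G-MDSC arrays, against 1364 and 1609 in the neutrophil arrays (log2 difference 0.19 ± 0.30). Its partner Ndufv2 had 3558 and 3620 in the G-MDSC arrays, against 2803 and 2965 in the neutrophil arrays (0.31 ± 0.29). Ndufs1, with several iron-sulfur clusters, had 1193 and 947 in the G-MDSC arrays, against 871 and 704 in the neutrophil arrays (0.43 ± 0.32). In the probe sets shown for these 3 subunits of the NADH-oxidising tip, both G-MDSC arrays lay above both neutrophil arrays, by less than the test resolves. Groups did not overlap for 59.5% of all genes. The other probe sets gave 0.07 and -0.10 for Ndufv1 and -0.16 and -0.11 for Ndufv2, and there the groups overlapped.

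Further along the path to ubiquinone the core subunits were mixed in sign. Ndufs3 had signals of 1440 and 1343 in the G-MDSC arrays, against 1820 and 2181 in the neutrophil arrays (-0.51 ± 0.30). Ndufs7, whose cluster passes electrons to ubiquinone, had 2002 and 1936 in the G-MDSC arrays, against 2230 and 1437 in the neutrophil arrays (0.14 ± 0.32). Ndufs8 had 3292 and 2354 in the G-MDSC arrays, against 3535 and 3176 in the neutrophil arrays (-0.27 ± 0.31). The groups overlapped for Ndufs7 and Ndufs8 and were apart for Ndufs3.

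By position, 1 of 14 matrix arm members was called, with a median difference of -0.05, and 1 of 19 membrane arm members, with a median of -0.22. Ndufa4 and Ndufab1 are in neither count. The accessory subunit Ndufa1 had signals of 12501 and 10309 in the G-MDSC arrays, against 11754 and 11845 in the neutrophil arrays (-0.06 ± 0.30). Ndufa10 had 1638 and 2052 in the G-MDSC arrays, against 1773 and 2703 in the neutrophil arrays, and Ndufs4, an accessory subunit of the matrix arm that is mutated in a form of Leigh syndrome in humans, 1226 and 1609 in the G-MDSC arrays, against 1144 and 2363 in the neutrophil arrays. In both, neutrophils replicate 2 was the highest array.

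Neutrophils replicate 2 also stood above the other arrays in further complex I genes. Ndufb2 had signals of 881 and 1155 in the G-MDSC arrays, against 964 and 3019 in the neutrophil arrays, and differed by -0.75 ± 0.46. Without neutrophils replicate 2 its difference was 0.064. The only probe set of 1 symbol for Ndufb4 was dim, with 51.0 and 46.9 in the G-MDSC arrays, against 47.0 and 272 in the neutrophil arrays (-1.05 ± 0.84). The low signal is that of this probe set and may not stand for the gene. Ndufa4, named with complex I but known as a subunit of complex IV, had 3174 and 2857 in the G-MDSC arrays, against 3050 and 5578 in the neutrophil arrays (-0.45 ± 0.34). Ndufb8 had 3156 and 3406 in the G-MDSC arrays, against 3980 and 5255 in the neutrophil arrays (-0.48 ± 0.30), and here both neutrophil arrays were above both G-MDSC arrays.

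Other accessory subunits of complex I were not called. Ndufa8 had signals of 4527 and 5312 in the G-MDSC arrays, against 2328 and 2952 in the neutrophil arrays (0.90 ± 0.30, adjusted p = 0.0666). Ndufa9, near the ubiquinone site, had 1443 and 1139 in the G-MDSC arrays, against 2078 and 2704 in the neutrophil arrays (-0.88 ± 0.32, adjusted p = 0.0835). Ndufab1, the mitochondrial acyl carrier protein, had 1077 and 1175 in the G-MDSC arrays, against 1417 and 2354 in the neutrophil arrays (-0.69 ± 0.34, adjusted p = 0.199). In all 3 the groups were apart. The complex I members not named above ran from -0.76 for Ndufa12 to 0.65 for Ndufa6.

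Complex II, the succinate dehydrogenase that is also an enzyme of the citric acid cycle, had 1 called member of 4. Sdhd, one of the membrane anchors, had signals of 4486 and 5033 in the G-MDSC arrays, against 2635 and 1783 in the neutrophil arrays. It was higher in G-MDSC by 1.13 ± 0.32 on the log2 scale (moderated SE, n = 2 per group, limma adjusted p = 0.0319). The groups were apart. A second probe set of Sdhd, of a type that can match other transcripts, was dimmer and did not show this, with 406 and 551 in the G-MDSC arrays, against 379 and 601 in the neutrophil arrays (-0.01 ± 0.38). With the median of its probe sets Sdhd was at 0.56 and not called (adjusted p = 0.252).

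The other 3 subunits of complex II were not called. Sdha, the flavoprotein that oxidises succinate, had signals of 2890 and 3086 in the G-MDSC arrays, against 1952 and 2262 in the neutrophil arrays (0.50 ± 0.30). Sdhb, the iron-sulfur subunit, had 4765 and 4927 in the G-MDSC arrays, against 3470 and 3819 in the neutrophil arrays (0.41 ± 0.29). Sdhc, the other anchor, had 1485 and 1453 in the G-MDSC arrays, against 1584 and 2541 in the neutrophil arrays (-0.45 ± 0.33). In the probe sets shown, the arrays of the groups were apart for all 4 genes, with Sdha, Sdhb and Sdhd above and Sdhc below in G-MDSC. Groups were apart for 59.5% of all genes. In the second probe sets of Sdhc and Sdhd the groups overlapped. Of the other probe sets of Sdha, that at 0.84 was apart and that at 0.30 overlapped.

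Complex III, the cytochrome bc1 complex, had 0 of 8 members called by limma, and 0 at an unadjusted p below 0.05. Cyc1, the gene for its cytochrome c1, is outside the symbol rule. It is counted with the electron carriers below and was not called (-0.58 ± 0.32). Uqcrfs1, the Rieske iron-sulfur protein, had signals of 2518 and 2885 in the G-MDSC arrays, against 2577 and 3559 in the neutrophil arrays (-0.17 ± 0.31). The core protein Uqcrc1 had 5092 and 4188 in the G-MDSC arrays, against 5086 and 5598 in the neutrophil arrays (-0.21 ± 0.30), and Uqcrc2 had 2965 and 2893 in the G-MDSC arrays, against 2080 and 2743 in the neutrophil arrays (0.29 ± 0.30). The groups overlapped for Uqcrfs1 and Uqcrc1.

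Among the small subunits, Uqcrb had signals of 16766 and 17501 in the G-MDSC arrays, against 20725 and 23515 in the neutrophil arrays (-0.37 ± 0.30). Uqcr10 had 1498 and 1630 in the G-MDSC arrays, against 1603 and 1836 in the neutrophil arrays (-0.13 ± 0.30). A second probe set of Uqcr10 gave 886 and 1762 in the G-MDSC arrays, against 348 and 520 in the neutrophil arrays. Its difference was 1.52 ± 0.41 (adjusted p = 0.0398 over all probe sets), and the remaining probe set was at 0.54. Of the 3 probe sets, 2 thus opposed the one shown in sign, and 1 of these differed from it in call. The members of complex III otherwise ran from -0.40 for Uqcr11 to 0.41 for Uqcrh.

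Complex IV, cytochrome c oxidase, had 1 called member of 15 tested, and this is no catalytic subunit. Cox7a2l is related in sequence to a subunit of complex IV and is known to join complexes III and IV into supercomplexes, and the C57BL/6 strain used here is known to carry a shortened form. Its signals were 5331 and 6091 in the G-MDSC arrays, against 2854 and 2754 in the neutrophil arrays. Cox7a2l was higher in G-MDSC by 1.02 ± 0.29 on the log2 scale (moderated SE, n = 2 per group, limma adjusted p = 0.0355). Its other probe sets gave 1.14 and 1.16.

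**Figure D3:**
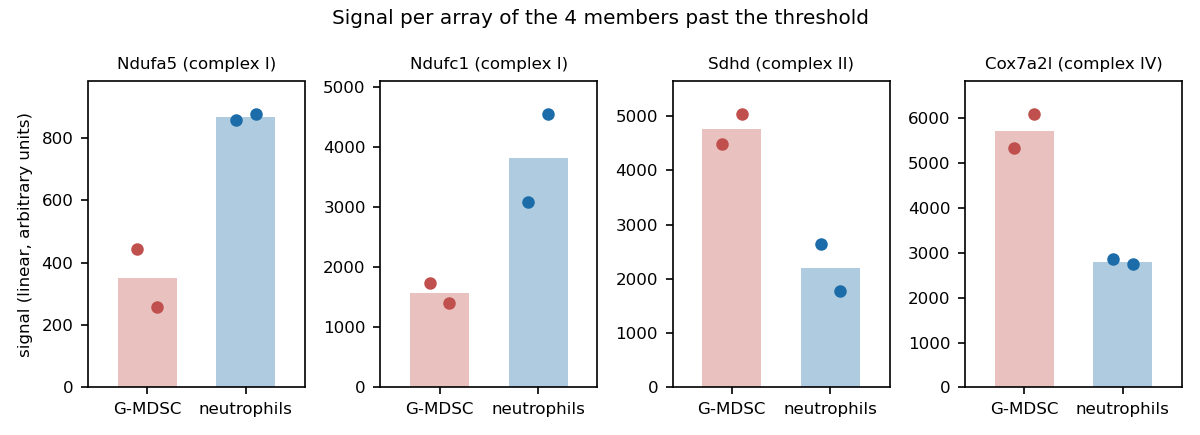
Signal per array (vertical axis, linear, from 0) of the 4 called members in G-MDSC (red) and neutrophils (blue). Points are single arrays and bars their means, and in each panel the 2 groups do not overlap.

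The widely expressed forms of the complex IV subunits had similar signals in both groups. Cox4i1, which regulates the enzyme by ATP, had 11730 and 13450 in the G-MDSC arrays, against 11647 and 13214 in the neutrophil arrays (0.02 ± 0.30, with a 95% interval from -0.64 to 0.67). Cox6a1 had 21489 and 24822 in the G-MDSC arrays, against 22475 and 26329 in the neutrophil arrays (-0.07 ± 0.31). Cox8a had 5458 and 7327 in the G-MDSC arrays, against 6392 and 6292 in the neutrophil arrays (-0.0039 ± 0.30). The groups overlapped in all 3, and their 95% intervals lay within 2-fold.

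Cox5a had signals of 12673 and 13605 in the G-MDSC arrays, against 15176 and 15595 in the neutrophil arrays (-0.23 ± 0.29). Cox5b had 11479 and 13853 in the G-MDSC arrays, against 13131 and 15015 in the neutrophil arrays (-0.15 ± 0.30). These bind close to the catalytic core. Cox6b1, on the side of cytochrome c, had 10657 and 12390 in the G-MDSC arrays, against 12814 and 12593 in the neutrophil arrays (-0.14 ± 0.30), and Cox7a2 had 14240 and 14516 in the G-MDSC arrays, against 14897 and 16824 in the neutrophil arrays (-0.14 ± 0.30). For Cox5a, Cox6b1 and Cox7a2 both G-MDSC arrays were just below both neutrophil arrays. Cox6c had 8085 and 8296 in the G-MDSC arrays, against 6523 and 12202 in the neutrophil arrays (-0.12 ± 0.35), and Cox7c had 626 and 423 in the G-MDSC arrays, against 559 and 413 in the neutrophil arrays (0.09 ± 0.36), with overlap in both.

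The tissue-restricted forms of complex IV subunits were not called. Cox7a1, the heart and muscle form, had 39.2 and 36.9 in the G-MDSC arrays, against 126 and 281 in the neutrophil arrays. Neither G-MDSC array reached its own 40th percentile for this gene. Cox7a1 was 3.16-fold lower in G-MDSC when the mean log2 value of neutrophils was set against the 40th percentiles of the G-MDSC arrays. This figure leaves out the spread between arrays and the higher 40th percentile of neutrophils replicate 2 (132.6). The 95% interval of the log2 difference of Cox7a1 from limma ran from -3.43 to -0.42, so a smaller fold is possible. Cox7a1 was not called (limma adjusted p = 0.0803). Cox4i2, the form of lung and of low oxygen, had 61.3 and 46.7 in the G-MDSC arrays, against 149 and 182 in the neutrophil arrays (-1.37 ± 0.62, adjusted p = 0.166). The arrays were apart for both genes, yet the signals are near the low end. With quantile normalization the difference was -1.48 for Cox7a1, as against -1.93 as reported, and -0.77 for Cox4i2, as against -1.37.

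The muscle form Cox6a2 had signals of 102 and 192 in the G-MDSC arrays, against 103 and 265 in the neutrophil arrays (-0.22 ± 0.57). The testis form Cox6b2 had 98.6 and 90.5 in the G-MDSC arrays, against 14.9 and 140 in the neutrophil arrays (0.67 ± 0.89), with the neutrophil arrays on both sides of the G-MDSC arrays. Cox8c, known from testis, had 460 and 454 in the G-MDSC arrays, against 655 and 1075 in the neutrophil arrays (-0.86 ± 0.35, adjusted p = 0.131). The other 3 members did not pass the filter. Cox8b had 27.6 and 9.14 in the G-MDSC arrays, against 9.91 and 57.7 in the neutrophil arrays, and was under the 40th percentile in each of the 4 arrays. Cox7b2 (29.2 and 13.7 in the G-MDSC arrays, against 25.7 and 162 in the neutrophil arrays) and Ndufa4l2, the paralogue of Ndufa4 induced by low oxygen (20.8 and 140 in the G-MDSC arrays, against 38.8 and 103 in the neutrophil arrays), were above it in 1 array each.

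Several probe sets were present for 38 of the members tested, and in 12 of them the differences had both signs. Besides Sdhd and Uqcr10 these were Cox5a, Cox5b, Cox6a1, Cox8a, Ndufa10, Ndufb2, Ndufb8, Ndufs4, Ndufv1 and Ndufv2. In these 10 genes the differences stayed between -0.81 and 0.59. The probe sets of Ndufa5, Ndufc1 and Cox7a2l had the same sign throughout, with the second probe set at -0.96 for Ndufa5 and at -1.02 for Ndufc1. Neither of these second probe sets passed the threshold over all probe sets (limma adjusted p = 0.238 and 0.0925). For that of Ndufa5 the groups overlapped. The other probe sets of Cox7a2l did pass it (0.0341 and 0.0360). Of the 65 probe sets shown, 11 carry the suffix that marks possible matches to other transcripts, and none of the 4 called members rests on one of them.

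**Figure D4:**
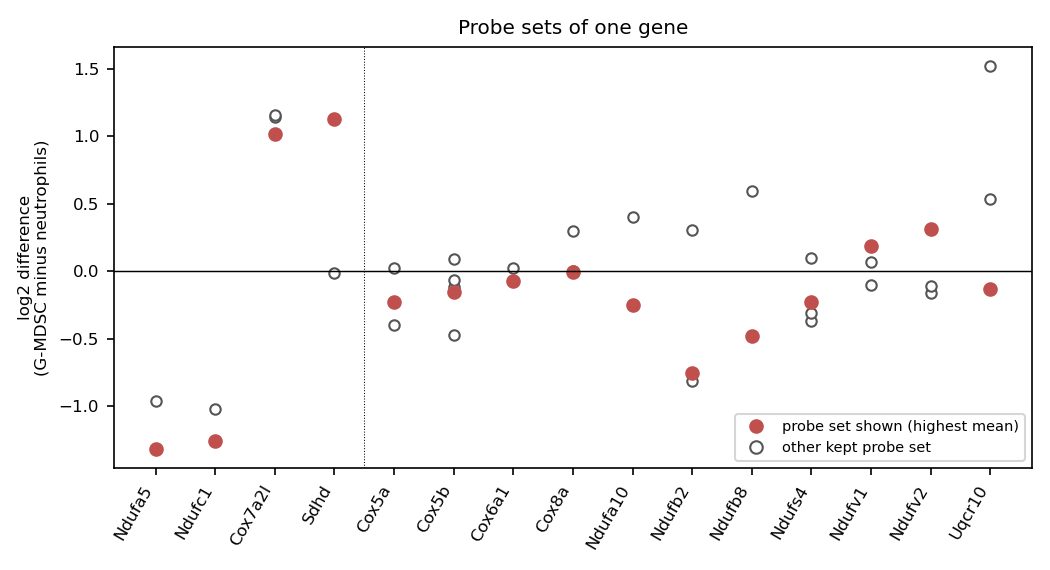
Log2 difference, G-MDSC minus neutrophils (vertical axis), of each kept probe set of the 4 called members (left of the dotted line) and of the other 11 genes whose probe sets differ in sign (right). Red points are the probe sets used for the gene and open points the others, and the probe sets of Sdhd, Uqcr10, Ndufb2 and Ndufb8 lie over 1 log2 unit apart.

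Genes that assemble the chain and its neighbours were read against the 16.4% of all genes called. Of 14 assembly factors of complex I, 1 was higher and 2 were lower in G-MDSC, with a list median of -0.40, a share of calls near that of all genes. Nubpl, which delivers iron-sulfur clusters to complex I, had 990 and 789 in the G-MDSC arrays, against 225 and 435 in the neutrophil arrays (1.45 ± 0.39). Ndufaf2 (-1.97 ± 0.47) and Ndufaf4 (-1.67 ± 0.37) were lower. Of 28 assembly factors of complexes II to IV, 2 were higher and 4 lower (median -0.22), again near the share over all genes. Surf1, which helps assemble complex IV, was higher by 1.65 ± 0.32 and Higd2a by 1.07 ± 0.30, while Uqcc2, a complex III factor, differed by -1.94 ± 0.33 and Sdhaf1, a complex II factor, by -1.79 ± 0.32. Cox17, a copper chaperone for complex IV, and Higd1a were the other members that fell.

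Cytochrome c, the mobile carrier between complexes III and IV, was lower in G-MDSC. Cycs had signals of 3950 and 5370 in the G-MDSC arrays, against 9800 and 16494 in the neutrophil arrays. It fell by 1.46 ± 0.34 on the log2 scale (moderated SE, n = 2 per group, limma adjusted p = 0.0141). Of 19 genes of electron carriers and ubiquinone synthesis, it was the 1 lower member, and Coq8a, a ubiquinone synthesis factor, the 1 higher one, with 462 and 768 in the G-MDSC arrays, against 203 and 170 in the neutrophil arrays (list median 0.21). Of 16 genes of the ATP synthase and its inhibitor, 1 was lower and 0 higher (median -0.32). This was Atp5g1, a gene for the membrane ring subunit, with 479 and 484 in the G-MDSC arrays, against 1445 and 2091 in the neutrophil arrays (-1.82 ± 0.33).

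Of 16 citric acid cycle and pyruvate dehydrogenase genes, 2 were lower in G-MDSC, Idh3a (-1.35 ± 0.40) and Fh1 (-1.27 ± 0.33), and 0 higher (median -0.20). Of 17 genes of mitochondrial biogenesis, 1 was higher and 1 lower (median -0.09). Gabpa, whose product binds the ETS motif above, had 2591 and 2113 in the G-MDSC arrays, against 1198 and 1052 in the neutrophil arrays (1.05 ± 0.31), and the coactivator Pprc1 differed by -1.59 ± 0.46. Nrf1 had 880 and 591 in the G-MDSC arrays, against 679 and 581 in the neutrophil arrays (0.20 ± 0.34), and its groups overlapped. Of 13 genes of the mitochondrial membranes, 2 were lower, the protein import genes Tomm40 (-1.51 ± 0.35), for the channel, and Tomm70a (-1.01 ± 0.32), for a receptor, and 0 higher (median -0.50). Neither this list nor that of the citric acid cycle had a larger share of calls than the 16.4% of all genes. ND5, the 1 mitochondrially encoded gene with a probe set here, had 3612 and 7938 in the G-MDSC arrays, against 5325 and 6014 in the neutrophil arrays (-0.08 ± 0.38).

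The 4 calls depend on the model and on single arrays. All 4 were lost with median scaling, where 13.9% of all genes were called, without the intensity trend (3.64% of all genes), without moderation (0% of all genes) and without G-MDSC replicate 2 (8.99%). At an unadjusted p below 0.05, 6, 7, 8 and 2 members were counted in that order. Without G-MDSC replicate 1, only Ndufa5 was called, where 8.23% of all genes were called. The same 4 genes were called with pseudocounts of 1 (16.3% of all genes) and 64 (16%), no filter (9.69%), the filter at the 60th percentile (23.6%), quantile normalization (14%) and robust moderation (17.1%). The median of probe sets left Ndufc1 and Cox7a2l (14.3% of all genes). Testing all probe sets, with each gene read from its brightest one, left Ndufa5, Ndufc1 and Sdhd (13.8%). There the brightest probe set of Cox7a2l had a limma adjusted p of 0.0503, and its others had 0.0341 and 0.0360. With the replicate block 9 members were called, 3 higher and 6 lower, where 25.2% of all genes were called. The direction of each of the 4 was the same under the 16 alternatives, with differences from -1.69 to -0.95 for Ndufa5, -1.53 to -0.98 for Ndufc1, 0.56 to 1.41 for Sdhd and 0.90 to 1.26 for Cox7a2l. Without neutrophils replicate 2, 8 of 60 members were called, 5 higher and 3 lower, where 25.1% of all genes were called. Without neutrophils replicate 1, 16 of 61 were called, 5 higher and 11 lower, where 45% of all genes were called.

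**Figure D5:**
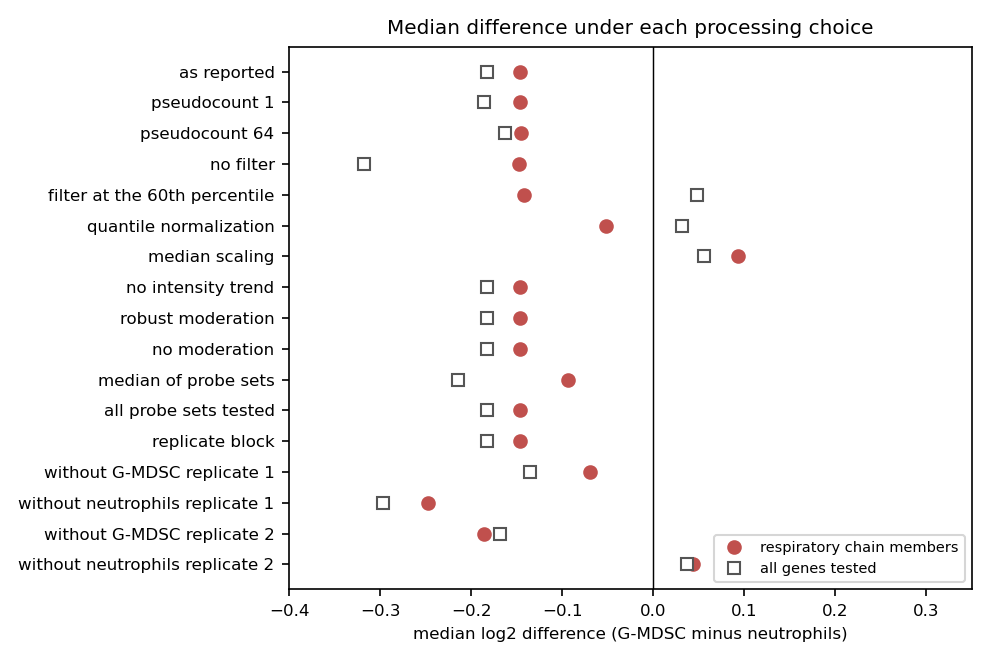
Median log2 difference, G-MDSC minus neutrophils (horizontal axis), of the members (red points) and of all genes tested (open squares) under each processing choice (vertical axis). The median of the members lay between -0.25 and 0.093, and its distance from the median of all genes between -0.19 and 0.17.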

How the data were processed

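Total RNA from 2 G-MDSC and 2 neutrophil samples was measured on 1 Affymetrix array each. The signal intensities deposited by the authors are on a linear scale and the submitters' processing notes name GCOS 1.4 and MAS5. After 2% was trimmed from either end of the values, the mean of each array was 500, which shows that scaling had been done. Detection calls were not used here, and the number of arrays limits the precision.

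The 64 control probe sets were left out of 45101. The filter kept 28765 probe sets, those whose signal passed the 40th percentile in 2 or more of the 4 arrays. Each of 13142 genes was represented by the kept probe set of highest mean. Symbols came from the platform annotation, and all 65 members matched RefSeq by gene ID. log2(signal + 16) was fitted with limma 3.58.1 (lmFit, eBayes with an intensity trend) in R 4.3.3, two-sided, Benjamini-Hochberg adjusted. The added 16 makes folds understate changes of dim genes. The part of the higher 40th percentile of neutrophils replicate 2 in the differences of dim genes was not tested. With 2 arrays per group no exact permutation p can be under 0.33, so none was used. The functions were tested on simulated data.

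Members and lists were chosen with earlier results of these data known. Named members are, per complex, up to 3 called per direction and the one with the highest mean, the core subunits, the paralogue sets, members that failed the filter and those whose probe sets differ in sign, and up to 2 called genes per direction of other lists. Ndufc2, Ndufa6, Ndufa8, Ndufa9, Ndufa12, Ndufab1, Ndufb4, Cox6c, Cox7c, Uqcr11, Uqcrh, Cyc1, Cox17, Higd1a, Nrf1, Adgre1, Cma1, Mcpt4, Tpsb2 and Mcpt8 were named after their values were seen. Alternatives were other pseudocounts, filters, scalings, variance models and probe set choices, the replicate block and leaving out each array.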

Additional observations from a re-analysis of the deposited data

How the results depend on the processing

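Of members, 2 were called higher and 2 lower in G-MDSC as reported, and the counts were the same with pseudocounts of 1 and 64, no filter, the filter at the 60th percentile, quantile normalization and robust moderation. Median scaling, no intensity trend and no moderation gave 0 and 0, with 6, 7 and 8 members at an unadjusted p below 0.05. The median of probe sets gave 1 and 1. Testing all probe sets, with each gene read from its brightest one, gave 1 higher and 2 lower. Leaving out 1 array gave 0 to 5 higher and 0 to 11 lower, and rests on the assumption that the lone array varies like the other group. With the replicate block there were 3 higher and 6 lower among members, and 1699 and 1608 over all genes, as against 1091 and 1058 without it. The labels give no reason to pair samples by number (correlation of their deviations 0.24 over genes), so the numbers may mark nothing shared. Over all genes no intensity trend gave 148 higher and 331 lower and no moderation 0 and 0 (2379 at an unadjusted p below 0.05), and leaving out 1 array gave 427 to 2395 higher and 599 to 3237 lower. The median difference of members was 0.093 with median scaling and -0.25 to 0.044 with 1 array left out. That of all genes was 0.048 with the filter at the 60th percentile, 0.031 with quantile normalization, 0.056 with median scaling and -0.30 to 0.037 with 1 array left out. The cause of these changes was not tested.

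Among the members chosen by the naming rule, those that were not called changed sign as follows, and the other members were not listed for this. Median scaling moved the median of all genes by 0.24 and quantile normalization by 0.21 on the log2 scale. Median scaling shifts all genes by nearly the same amount, so it turns the sign of small negative differences by construction. With it the difference was 0.011 for Cox5a, 0.084 for Cox5b, 0.16 for Cox6a1, 0.016 for Cox6a2, 0.094 for Cox6b1, 0.10 for Cox7a2, 0.23 for Cox8a, 0.18 for Ndufa1, 0.013 for Ndufs4, 0.11 for Uqcr10, 0.031 for Uqcrc1 and 0.072 for Uqcrfs1. With the median of probe sets it was 0.022 for Cox5a, 0.067 for Cox5b, 0.00098 for Cox8a, 0.073 for Ndufa10, 0.056 for Ndufb8, -0.10 for Ndufv1, -0.13 for Ndufv2 and 0.81 for Uqcr10. With quantile normalization it was 0.13 for Cox6a1, 0.16 for Cox6a2, 0.016 for Cox7a2, 0.031 for Ndufa1 and -0.027 for Ndufs7. With 1 array left out it ran from -0.081 to 0.12 for Cox4i1, -0.19 to 0.039 for Cox6a1, -0.85 to 0.40 for Cox6a2, -0.50 to 1.84 for Cox6b2, -0.22 to 0.21 for Cox8a, -0.87 to 0.035 for Cox8c, -0.19 to 0.083 for Ndufa1, -0.56 to 0.048 for Ndufa10, -1.57 to 0.064 for Ndufb2, -0.74 to 0.29 for Ndufs4, -0.18 to 0.30 for Ndufs7 and -0.40 to 0.064 for Uqcrfs1. With an array left out, the probe set with the highest mean was chosen anew, so some of these ranges mix probe sets. The 0.035 of Cox8c and the 0.30 of Ndufs7 come from a probe set other than the one shown. In the probe set shown for Cox8c, both G-MDSC arrays lay below both neutrophil arrays. Low signals, such as those of Cox7a1 and Cox4i2, limit what can be read for these genes.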
